A study of Mus musculus with 6 samples.

Results

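Levels of 10 genes for transcription factors of blood stem cell self-renewal, Mllt3, Mecom, Hlf, Meis1, Prdm16, Gata2, Erg, Runx1, Tal1 and Lmo2, were read from arrays of sorted mouse KSL cells with and without TIF1b. Trim28 encodes TIF1b, a corepressor that silences genes together with HP1 proteins. KSL cells (c-Kit+, Sca-1+, negative for lineage markers) include the blood stem cells, mixed with early progenitors. The 10 genes were matched to the arrays through the RefSeq accessions of the probes. All 10 were found, on 13 probes, among 20284 genes named on the array, and each is represented by its brightest probe unless the other is named.

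The arrays formed 4 groups, all on a C57BL6 background: 2 bone marrow KO arrays (CreERT, Tif1bf/f), 2 bone marrow WT arrays (CreERT, Tif1bw/w), 1 fetal liver KO array (Tie2-Cre, Tif1bf/f) and 1 fetal liver WT array (Tie2-Cre, Tif1bw/w). The bone marrow was adult, and the WT groups carried the same Cre as the KO groups. CreERT is a Cre that tamoxifen switches on, and Tie2-Cre acts in endothelial and blood-forming cells. Ages, the tamoxifen schedule and any pooling of animals are not given in the sources used here. No label says whether the 2 arrays of a group are separate animals, and the p-values may measure technical spread. In bone marrow replicate 2 the genotypes are labelled Tif2b, which was read as Tif1b. Tissue goes together with the Cre driver, the age and the slide, and these cannot be told apart.

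Between 24383 and 31419 probes were well above background per array, at a 75th percentile signal of 211 to 743. Levels below are log2 signals minus the array's own 75th percentile, so that 0 is the 75th percentile and 1 unit is 2-fold. The targeted gene, Trim28, was at 1.28 and 0.75 on the bone marrow KO arrays, against 5.55 for WT replicate 2. It was at 1.68 in fetal liver KO and at 5.97 in fetal liver WT. Whether its probe falls within the floxed exons is unknown. The array labelled bone marrow WT replicate 1 stood apart. Its scanner file gave Trim28 at 2.45 and Kit, the gene of the sorting marker c-Kit, at 1.30, whereas its column in the authors' table of values gave 5.18 and 4.16. The other 5 arrays had Kit between 4.17 and 4.50. For Ly6a, the gene of Sca-1, that array read 4.48 by scanner and 3.36 by table. Ly6a ranged over 3.60 to 6.04 on the other bone marrow arrays, and was low in fetal liver (0.77 in KO and 0.31 in WT). Only 1.40% of the probes compared lay within 1% of proportionality between that array's sources, against 100% on each of the other 5. This sample's description mentions Hp1a knockdown in c-Kit+, lineage-negative cells, and the description of bone marrow KO replicate 1 mentions Hp1g knockdown. The members' bone marrow levels and differences are therefore given with this array taken from both sources, and the correlations of pattern from the table only. For the other arrays the sources differed by less than the second decimal for nearly all levels printed.

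Blood stem cells are kept in an uncommitted, self-renewing state by a small set of transcription factors that bind many of the same enhancers and each other's genes. GATA2, TAL1, LMO2, RUNX1 and ERG, with LYL1 and FLI1, form the group known as the heptad. MECOM (EVI1), PRDM16, HLF and MEIS1 are needed to maintain stem cells in mice, and MLLT3 is known for the self-renewal of human blood stem cells. Several of them are also used in megakaryocyte, mast cell or erythroid development.

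In bone marrow, levels of most of the 10 genes lay higher in KO than in WT. Mllt3 (2.88-fold) and Gata2 (2.11-fold) showed the largest differences in the value table. In the table both KO arrays lay above both WT arrays for Mllt3, Hlf, Meis1, Gata2, Erg and Tal1. This is 6 of the 10 genes, against 17.6% of all genes tested. In the scanner files it held for Mllt3, Meis1, Gata2, Erg and Tal1, against 15.4% of all genes. It held there for Hlf too, which was tested only because it was above background in KO, where it is high. The sources differ mainly in WT replicate 1, so they are not independent. No member had both KO arrays below both WT arrays, against 19.6% of all genes in the table and 13.1% in the scanner files. The difference was positive for 8 of 10 members in the table, against 44.2% of all genes tested. The members' median was 0.52, against -0.05 over all genes tested. In the limma fit of the 4 table columns 0 of 10 members passed an adjusted p of 0.05, where 0.876% of all genes did, and 4 had an unadjusted p under 0.05 (Mllt3, Gata2, Meis1 and Tal1), against 11.0% of all genes. Per the scanner file headers each slide held 1 KO and 1 WT array. With the slide as a replicate block Mllt3 and Gata2 passed, against 7.67% of all genes, or 3.96% counting only higher ones. The slide of the table column of WT replicate 1 is not known apart from its scanner file, so the block there rests on the replicate number. In the limma fit of the scanner files the members' median was 2.27, but the spread of WT was wide and 0 of 10 members and 0 of 13011 genes passed, with or without the block. At an unadjusted p under 0.05 the scanner fit held 1 member, Mllt3, and 4.21% of all genes.

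**Figure D1:**
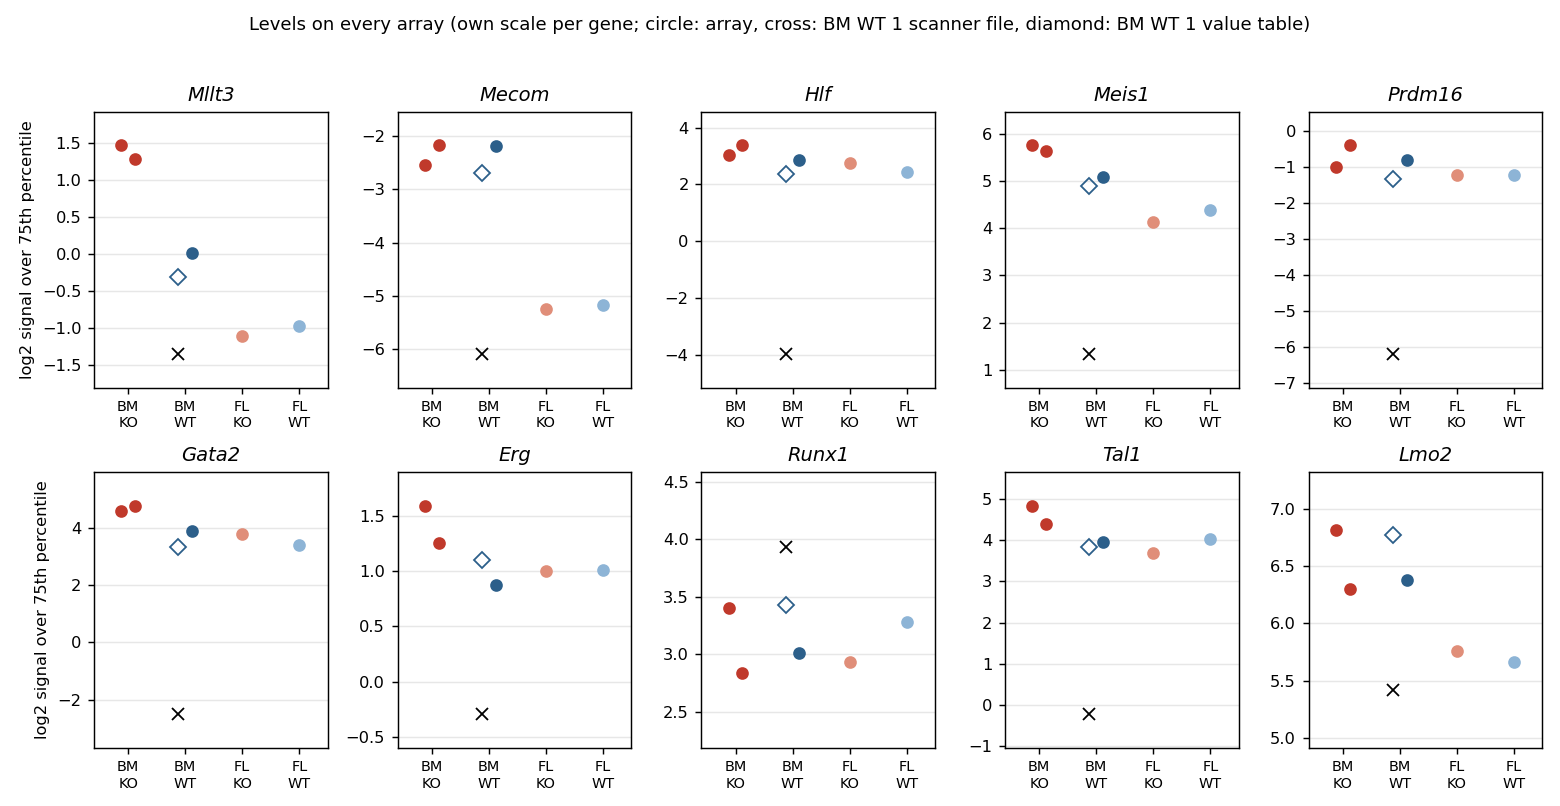
Level of each gene on every array, as log2 signal over the array's 75th percentile, with a scale of its own for each gene. Circles are arrays of bone marrow (BM) KO, BM WT, fetal liver (FL) KO and FL WT, and the array labelled BM WT replicate 1 is drawn from its scanner file (cross) and its value table column (diamond). Both BM KO arrays lie above the BM WT points for Mllt3, Hlf, Meis1, Gata2, Erg and Tal1 with either source.

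Mllt3 (chr4:87769925-88033407, GRCm38.p6) encodes AF9, a reader of acylated histones in the super elongation complex and a partner of DOT1L. Its level was 1.46 and 1.28 in bone marrow KO, against 0.01 in WT replicate 2 and, for WT replicate 1, -0.31 in the table and -1.35 in the scanner file. In fetal liver it was -1.10 in KO and -0.97 in WT. The bone marrow KO arrays thus stood above all other arrays, and bone marrow WT stood above fetal liver only in the table. The bone marrow difference was 1.52 ± 0.26 in the table (SE, 2 arrays per genotype), or 2.88-fold, with a limma adjusted p of 0.0883. With the slide block the limma adjusted p was 0.0179. The scanner difference was 2.04 ± 0.56 (limma adjusted p = 1.00). The KO array was above the WT array of the same number by 1.77 in pair 1 of the table, by 2.81 in pair 1 of the scanner files and by 1.27 in pair 2.

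Gata2 (chr6:88193891-88207032) encodes a GATA factor required for the formation and survival of blood stem cells and for mast cells. It was at 4.60 and 4.78 in bone marrow KO, against 3.88 in WT replicate 2 and, for WT replicate 1, 3.34 in the table and -2.51 in the scanner file. In fetal liver it was at 3.78 in KO and 3.40 in WT. The KO value was above the WT value in all 3 same-numbered pairs. The bone marrow difference was 1.08 ± 0.30 in the table, or 2.11-fold (limma adjusted p = 0.243, and 0.0344 with the slide block). Within the table's same-numbered pairs it was 1.26 and 0.90. The scanner difference was 4.0 ± 2.07 (limma adjusted p = 1.00), from 7.11 in pair 1 and 0.90 in pair 2, and it was 0.81 without the array that stood apart.

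RefSeq promoter windows of 300 bases around annotated starts are shown for Mllt3 and Gata2, the members that passed with the slide block, with motif matches in capitals. On both strands, the GATA motif was searched as AGATAA or TGATAA, the RUNX motif as TGTGGT or TGCGGT, the ETS motif as CGGAAG or AGGAAG, and the E-box as CAGCTG or CAGATG. These are kinds of letters that GATA2, RUNX1, ERG and TAL1 are known to bind. No matches overlapped in the windows printed.
Mllt3 promoter window, chr4:88033358-88033657, minus strand: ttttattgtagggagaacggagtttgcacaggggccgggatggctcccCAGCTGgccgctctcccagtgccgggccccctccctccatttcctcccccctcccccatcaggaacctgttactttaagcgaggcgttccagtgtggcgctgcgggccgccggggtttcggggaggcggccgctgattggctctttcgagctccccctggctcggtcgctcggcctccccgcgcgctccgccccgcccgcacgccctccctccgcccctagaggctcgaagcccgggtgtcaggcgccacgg
Gata2 promoter window, chr6:88193641-88193940, plus strand: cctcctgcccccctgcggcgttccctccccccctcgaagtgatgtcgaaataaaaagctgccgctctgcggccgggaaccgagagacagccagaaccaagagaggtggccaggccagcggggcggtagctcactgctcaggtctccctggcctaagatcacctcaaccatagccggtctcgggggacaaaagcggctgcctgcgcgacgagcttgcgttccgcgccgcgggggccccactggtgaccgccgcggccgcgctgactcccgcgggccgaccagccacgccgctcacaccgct
Gata2 promoter window, chr6:88198414-88198713, plus strand: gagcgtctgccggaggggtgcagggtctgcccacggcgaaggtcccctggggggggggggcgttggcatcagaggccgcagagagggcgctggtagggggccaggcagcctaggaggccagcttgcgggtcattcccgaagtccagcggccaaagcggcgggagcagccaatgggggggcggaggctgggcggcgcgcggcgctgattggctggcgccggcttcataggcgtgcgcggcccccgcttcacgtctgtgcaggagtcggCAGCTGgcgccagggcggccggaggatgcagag
The Mllt3 window printed and the second Gata2 window each held 1 E-box match, and the first Gata2 window held none of the 4 motifs. Another Mllt3 window, at chr4:87806274-87806573 and not printed, also held 1 E-box match. Of all 32851 mouse windows of this length, 30.6% held an E-box match, 18.6% a GATA match, 22.4% a RUNX match and 46.5% an ETS match. The table had 16 windows for 9 of the 10 genes, Lmo2 being the other, and 5 held an E-box, 3 a GATA, 2 a RUNX and 4 an ETS match.

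Meis1 (chr11:18880428-19019651) encodes a homeodomain protein that works with PBX and HOXA9. Its level was 5.76 and 5.64 in bone marrow KO, against 5.09 in WT replicate 2 and 4.89 (table) or 1.33 (scanner) in WT replicate 1. The groups did not overlap, and the difference was 0.71 ± 0.25 in the table (limma adjusted p = 0.372, and 0.0856 with the block) and 2.49 ± 1.25 by scanner. In fetal liver it was at 4.13 in KO and 4.39 in WT, below every bone marrow level apart from the scanner value of the array that stood apart.

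Hlf (chr11:90336535-90390917) encodes a bZIP factor of the PAR family that marks stem cells. It was at 3.04 and 3.37 in bone marrow KO, against 2.86 in WT replicate 2 and 2.37 in the table for WT replicate 1. In the scanner file of that array it was at -3.98, not well above background. Fetal liver had 2.74 in KO and 2.45 in WT. KO was above WT in all 3 same-numbered pairs, as for Gata2. These were 2 of 10 members, against 17.3% of all genes in the table and 11.6% in the scanner files. The bone marrow difference was 0.59 ± 0.30 in the table and 3.77 ± 2.21 in the scanner files (limma adjusted p = 0.601 and 1.00).

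The other members with separate groups were Tal1 and Erg. Tal1 (chr4:115056426-115071755), a basic helix-loop-helix factor at the base of the blood lineage, was at 4.85 and 4.41 in bone marrow KO, against 3.96 in WT replicate 2 and 3.83 (table) or -0.23 (scanner) in WT replicate 1. The difference was 2.76 ± 1.39 by scanner and 0.73 ± 0.28 in the table (limma adjusted p = 0.420), where it was 1.01 in pair 1 and 0.44 in pair 2. Erg (chr16:95359169-95586600), an ETS factor needed for stem cell maintenance, was at 1.59 and 1.25 in bone marrow KO, against 0.87 in WT replicate 2 and 1.1 (table) or -0.29 (scanner) in WT replicate 1. The difference was 0.44 ± 0.27 in the table (limma adjusted p = 0.720) and 1.13 ± 0.53 by scanner. The dimmer Erg probe gave 0.37 in bone marrow, and both KO arrays were above both WT arrays there too.

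Prdm16 and Mecom encode related zinc finger proteins with a PR domain. Prdm16 (chr4:154316122-154637360) was at -1.0 and -0.41 in bone marrow KO, against -0.81 in WT replicate 2 and -1.34 in the table for WT replicate 1, so the groups overlapped. The scanner value of that array, -6.20, was not well above background. The difference was 0.38 ± 0.34 in the table (limma adjusted p = 0.890), and the scanner difference, 2.81 ± 1.77, rests on that value. Mecom (chr3:29951296-30509759) was at -2.54 and -2.18 in bone marrow KO, against -2.20 in WT replicate 2 and -2.70 in the table for WT replicate 1. By scanner that array was at -6.09, again not well above background. The Mecom difference was 0.09 ± 0.30 in the table (limma adjusted p = 0.989), -0.03 there by its other probe, and 1.78 ± 1.30 by scanner.

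Runx1 and Lmo2 had table differences below 0. Runx1 (chr16:92601466-92826074), the factor that starts definitive blood formation, was at 3.40 and 2.84 in bone marrow KO, against 3.01 in WT replicate 2 and 3.43 (table) or 3.93 (scanner) in WT replicate 1. The difference was -0.10 ± 0.32 in the table and -0.35 ± 0.50 in the scanner files. The 2 Runx1 probes, designed to different RefSeq transcripts, disagreed in sign, the other giving 0.28 in the table. Lmo2 (chr2:103957903-103981878), which bridges TAL1 and GATA factors through LDB1, was at 6.82 and 6.30 in bone marrow KO, against 6.38 in WT replicate 2 and 6.77 (table) or 5.42 (scanner) in WT replicate 1. The difference was -0.02 ± 0.31 in the table and 0.66 ± 0.50 in the scanner files, and its sign in the table turned with quantile normalization (0.14).

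**Figure D2:**
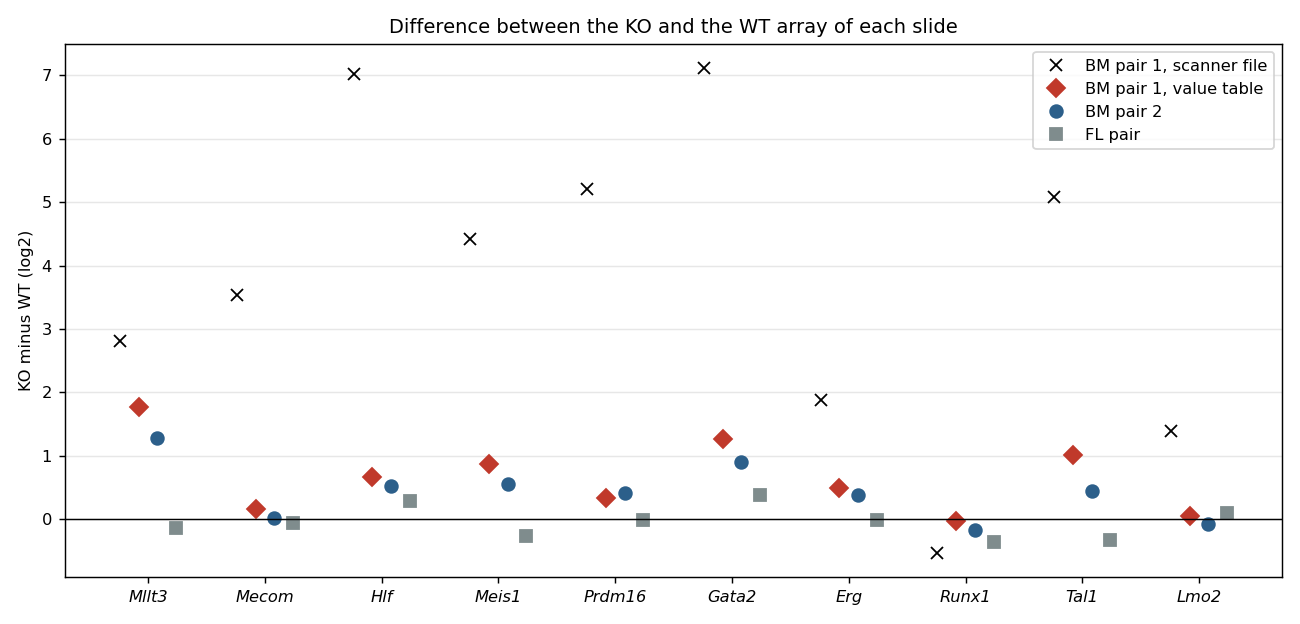
Difference between the KO and the WT array of each same-numbered pair, in log2 units, for the 10 genes. Bone marrow pair 1 is shown with WT replicate 1 from the scanner file (cross) and from the value table (diamond), pair 2 as circles and the fetal liver pair as squares. The crosses reach 7.11 for Gata2, the table values of both bone marrow pairs reach 1.77, and the fetal liver pair stays between -0.35 and 0.37.

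Marker genes of other cells differed between the same bone marrow arrays, although the lineage-negative gate is meant to remove mature blood cells. Summed signals relative to the 75th percentile of 9 megakaryocyte genes, Gata2 and Tal1 being factors of that lineage, were 230 and 260 in KO, against 112 in WT replicate 2 and 126 (table) or 0.55 (scanner) in WT replicate 1. In the table all 9 were higher in KO and 0 passed in limma. For 8 mast cell and basophil genes the sums were 126 and 86.1 in KO, against 38.4 in WT replicate 2 and 30.9 (table) or 13.6 (scanner) in WT replicate 1. All 8 were well above background on both KO arrays, and 0 passed. Sums of 8 erythroid genes were 71.5 and 12.6 in KO, against 7.08 in WT replicate 2 and 5.50 (table) or 414 (scanner) in WT replicate 1. Their order thus turned with the source of that array. In the table all 7 erythroid genes tested were higher in KO, with a median of 1.53, and 0 passed. Sums of 9 neutrophil genes were lower in KO, at 275 and 31.1, against 729 in WT replicate 2 and 1405 (table) or 1471 (scanner) in WT replicate 1. The 8 monocyte and macrophage genes summed to 37.7 and 40.2 in KO, against 98.3 in WT replicate 2 and 168 (table) or 655 (scanner) in WT replicate 1. Mmp8 on both KO arrays and Adgre1 on 1 were the only genes of these last 2 lists not well above background in KO. In the value table, 4 of the 9 neutrophil genes and 4 of the 8 monocyte and macrophage genes passed in limma, all lower in KO. There 0 of the 9 neutrophil genes and 2 of the 8 monocyte and macrophage genes were higher in KO. In the scanner files 0 of these 5 lists' genes passed. The part of these markers in the members' differences was not tested, and in sorted bulk cells a change in the share of cells cannot be told apart from a change of RNA per cell.

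In fetal liver, where each genotype is 1 array and no test was made, no member differed by 2-fold or more, against 9.75% of the 12701 genes measured there. Of the 9 members well above background, 3 were higher in KO, against 42.2% of all genes measured. These were Gata2, Hlf and Lmo2, with differences of 0.37, 0.29 and 0.10. The lowest were Runx1 at -0.35, Tal1 at -0.34 and Meis1 at -0.26. Mllt3 differed by -0.14, and Erg and Prdm16 each by -0.01. The members' median was -0.01, against -0.07 over all genes, whose middle 90% ran between the 5th percentile of -0.92 and the 95th of 1.06. The dimmer Erg probe gave 0.47 where the brighter gave -0.01. Mecom was not well above background on either fetal liver array, at -5.24 in KO and -5.17 in WT.

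In the table the knockout difference in bone marrow minus that in fetal liver was largest for Mllt3, at 1.66 ± 0.46 (limma adjusted p = 0.429). For Tal1 it was 1.06 ± 0.49 and for Meis1 0.97 ± 0.44 (limma adjusted p = 0.855 and 0.844). By scanner values the order was another, with Gata2 at 3.63 ± 3.63, Hlf at 3.47 ± 3.88 and Tal1 at 3.10 ± 2.44 above Mllt3 at 2.18 ± 0.99. The members' median was 0.42 in the table and 2.46 by scanner. No member passed in the limma interaction test, and 0 of 13499 genes in the table and 0 of 13661 by scanner did. At an unadjusted p under 0.05, the table held 1 member and 7.04% of all genes, and the scanner fit 0 members and 2.57% of all genes. With the slide as a replicate block 0 members and 2.78% of all genes passed in the table, with a lowest adjusted p among members of 0.112, for Mllt3. Here the single array of each fetal liver genotype is assumed to have the spread of the bone marrow groups. Over both tissues together, with tissue as a term, 0 of 10 members passed for genotype in either source in limma, against 0.170% of all genes in the table and 0 genes in the scanner files, and 2 members (table) and 0 members (scanner) had an unadjusted p under 0.05, where 10.4% and 3.41% of all genes did.

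In the value table, Mecom, Mllt3 and Meis1 were higher in bone marrow than in fetal liver, and Lmo2 leaned the same way. There all 4 bone marrow arrays lay above both fetal liver arrays for Mllt3, Meis1 and Lmo2, against 17.9% of all genes tested. These are among the 9 members well above background in both tissues. Mecom lay so too, but was tested only through bone marrow, where it is high. In the limma model of tissue and genotype over the 6 table columns 2 of the 9 members well above background in both tissues passed, Mllt3 and Meis1, both higher in bone marrow, against 22.9% of all genes, or 8.92% counting only higher ones. With the slide as a random block 0 of these 9 passed, against 6.11% of all genes. Mecom, tested because it was above background in bone marrow, passed in both fits. The median of the 10 members was 0.48, with Mecom at its fitted value or at its bound, against -0.26 over all genes. Quantile normalization moved the median of all genes to -0.04, and turned the split of all calls, at 1204 higher and 1885 lower, to 1578 higher and 1346 lower. In the scanner files 0 of 10 members passed in limma, against 2.10% of all genes, and 0 members had an unadjusted p under 0.05, where 27.0% of all genes did. There no member had all bone marrow arrays above both fetal liver arrays, against 12.9% of all genes.

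Mecom was measured in bone marrow only. On the table's bone marrow columns it lay between -2.70 and -2.18, against -5.24 and -5.17 on the fetal liver arrays, where it was not well above background. The fitted tissue difference was 2.80 ± 0.23 (limma adjusted p = 0.00340, and 0.0137 with the slide as a random block), and the gene met the filter through the tissue where it is high. Because the fetal liver signal is only a bound, the measured fold in the table is at least 1.84-fold by this probe and at least 1.08-fold by the other. By scanner values 3 of 4 bone marrow arrays were well above background and the fitted difference was 1.95 ± 1.14 (limma adjusted p = 0.318). The scanner bounds were 1.02-fold by the brighter probe and 0.63-fold by the other, so they set no clear excess in bone marrow.

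Mllt3 was higher by 1.65 ± 0.40 in bone marrow (limma adjusted p = 0.0398), or 1.90 relative to all genes. This difference was uneven between genotypes, at 2.48 for the KO and 0.82 for the WT arrays. Meis1 was higher by 1.08 ± 0.27 (limma adjusted p = 0.0428), or 1.34 relative to all genes, at 1.56 for KO and 0.59 for WT. With the slide as a random block neither Mllt3 nor Meis1 passed, at limma adjusted p = 0.157 and 0.154. Their scanner differences were 1.39 ± 0.64 and 0.19 ± 1.19. Lmo2 was higher by 0.85 ± 0.24 without passing (limma adjusted p = 0.0542), and passed with quantile normalization at 1.36 (limma adjusted p = 0.00583). The other 6 members differed by 0.06 for Runx1 to 0.56 for Gata2 in the table, and none passed. Hlf, Prdm16, Gata2, Erg and Tal1 had a negative difference in the scanner files, in which WT replicate 1 had the lowest level of all arrays for each of them. For Erg the probes disagreed, the brighter giving -0.15 by scanner and 0.20 in the table, and the dimmer 0.44 and 0.80. By the dimmer probe all bone marrow columns of the table lay above both fetal liver arrays.

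RefSeq windows of Mecom and Meis1, both higher in bone marrow than in fetal liver in the table, are shown with the same motifs in capitals.
Mecom promoter window, chr3:30509710-30510009, minus strand: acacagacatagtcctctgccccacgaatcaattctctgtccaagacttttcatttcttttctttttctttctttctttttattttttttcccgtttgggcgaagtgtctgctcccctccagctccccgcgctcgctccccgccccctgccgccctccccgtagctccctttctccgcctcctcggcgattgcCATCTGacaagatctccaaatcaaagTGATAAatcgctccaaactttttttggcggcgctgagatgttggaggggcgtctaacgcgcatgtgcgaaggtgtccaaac
Meis1 promoter window, chr11:19018920-19019219, minus strand: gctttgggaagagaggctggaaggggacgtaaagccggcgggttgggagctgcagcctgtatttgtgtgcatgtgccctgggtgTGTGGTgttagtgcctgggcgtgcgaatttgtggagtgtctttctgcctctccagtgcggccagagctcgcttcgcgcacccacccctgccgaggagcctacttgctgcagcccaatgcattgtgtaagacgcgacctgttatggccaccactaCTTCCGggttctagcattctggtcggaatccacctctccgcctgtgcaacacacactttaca
The Mecom window held 1 E-box and 1 GATA match, and the Meis1 window 1 RUNX and 1 ETS match. Another Mecom window held 1 ETS match, and 1 of the Runx1 windows held 2 RUNX matches.

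**Figure D3:**
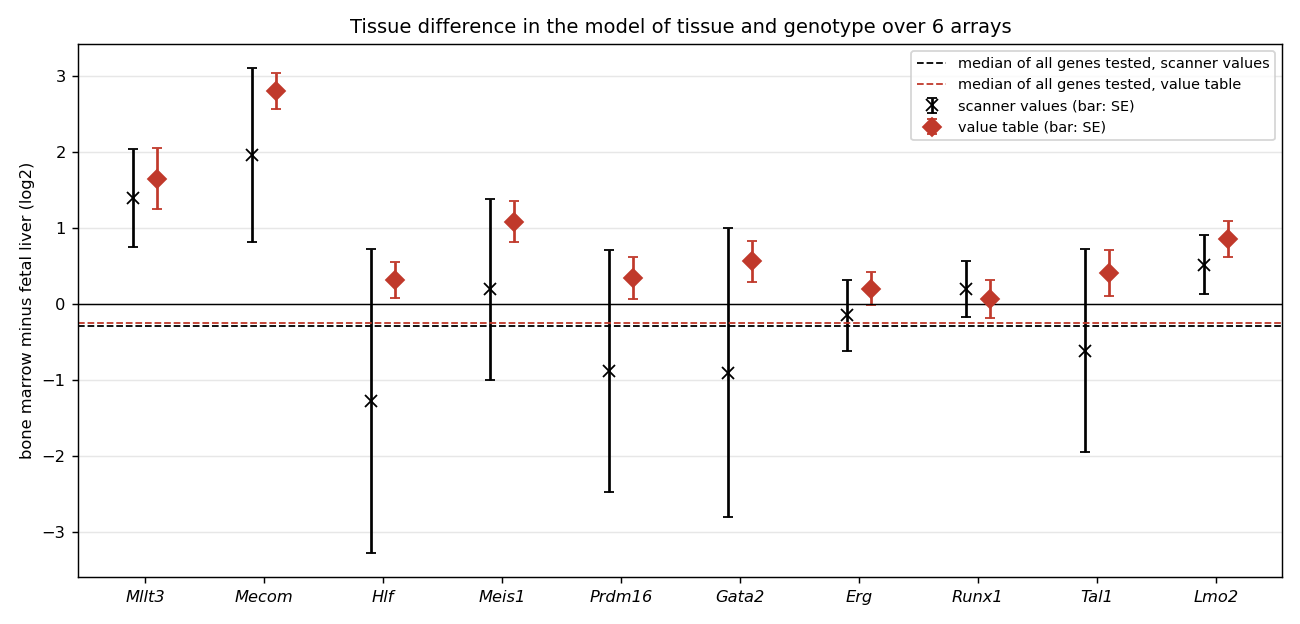
Bone marrow minus fetal liver difference in log2 units for each gene, from the limma model of tissue and genotype over 6 arrays. Crosses are scanner values, diamonds the value table, bars the standard error, and dashed lines the medians of all genes tested. Mecom, Mllt3 and Meis1 lie highest in the table, at 2.80, 1.65 and 1.08, the first of these against fetal liver signals not well above background.

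For 3 members the array held a second probe. The Mecom probes, to different transcripts, were both not well above background in fetal liver and both above it on all table columns of bone marrow. The Erg probes target the same transcript. The dimmer one was at -0.30 and -0.49 in bone marrow KO, against -0.77 in both WT columns of the table, and at -1.15 and -1.63 in fetal liver KO and WT. The second Runx1 probe was at 1.90 and 2.37 in bone marrow KO, against 2.11 in WT replicate 2 and 1.60 (table) or 1.76 (scanner) in WT replicate 1, and its groups overlapped.

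**Figure D4:**
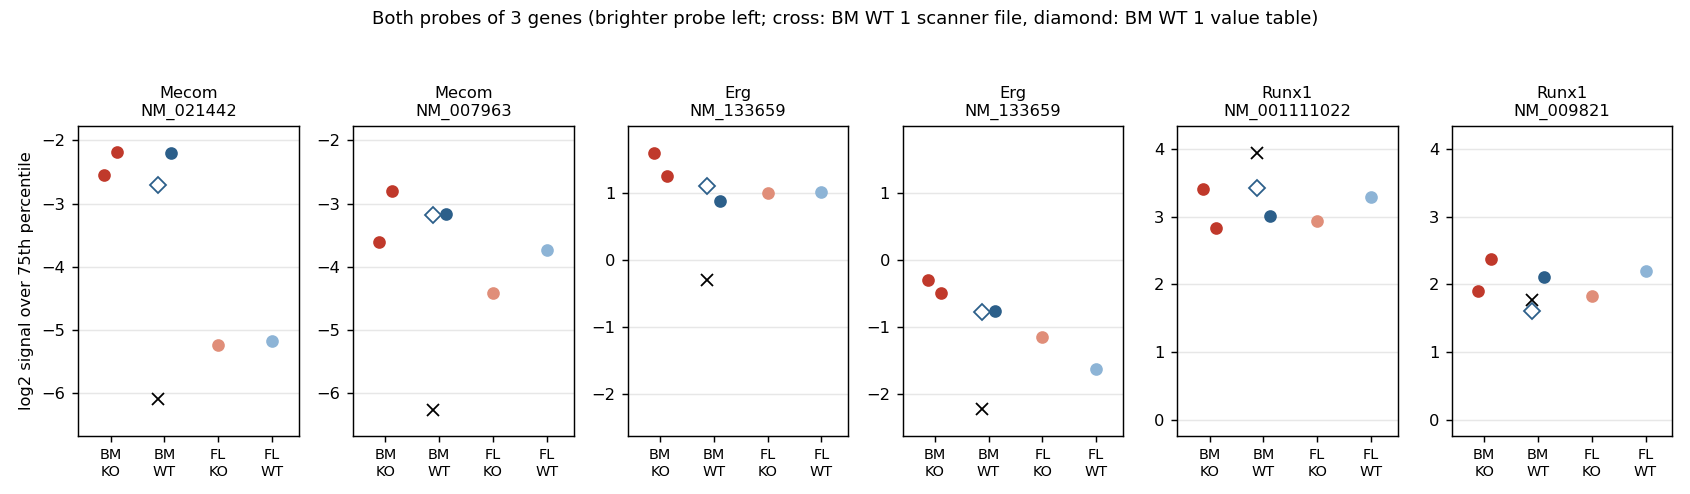
Levels by both probes of Mecom, Erg and Runx1 on every array, as log2 signal over the array's 75th percentile, with the RefSeq transcript each probe was designed to. Points are as in the plot of levels by gene. The 2 probes of a gene show the same order of tissues for Mecom, and the Runx1 probes place bone marrow KO replicate 1 and replicate 2 in opposite order.

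Over the 6 table columns, each member above background throughout had genes of nearly the same pattern, which describes 6 points that share slides. The member most like Mllt3 was Meis1 (Pearson r = 0.984), and Hlf and Gata2 were most like each other (0.967), as were Erg and Tal1 (0.895). Runx1 had no close member, Lmo2 being nearest at 0.457. Among all 11242 genes above background on the 6 columns the nearest were Clstn3 to Mllt3 (0.995), Serpinb9 to Meis1 (0.996), Trip12 to Hlf (0.993), Phc1 to Prdm16 (0.992) and Pglyrp2 to Gata2 (0.995). For the rest they were Xrcc4 to Erg (0.984), Sergef to Runx1 (0.997), Tusc3 to Tal1 (0.987) and Lat2 to Lmo2 (0.998). Between 22 and 160 genes had an r above 0.95 with a given member, and Mecom was left out because it was not above background on every array.

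Of the wider pathway, 1 gene passed in bone marrow without the slide block, among the targets described after the other lists. Among 21 partners and complex members, such as Ldb1, Lyl1, Fli1 and Dot1l, 0 passed in the table in limma, with a median of 0.05, and the largest differences were Pbx3 at 0.75, Zfpm1 at 0.70 and Hoxa10 at 0.55. Among 12 paralogs tested 0 passed, with Nfil3 at -1.90, Lmo1 at -1.77 and Prdm1 at 0.90. With the slide block Nfil3 and Lmo1 were among those that passed, both lower in KO. Among 24 other stem cell factors 0 passed, the largest being Mycn at 1.93, Rarb at 1.31 and Nkx2-3 at 1.17. With the block Mycn and Rarb passed as higher in KO and Gfi1, at -1.07, as lower.

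Among 18 tested genes known as targets of these factors Csf1r, the receptor of macrophage growth factor and also a monocyte marker here, fell by 3.00 on the log2 scale (SE 0.40, limma adjusted p = 0.0490), at 2.18 and 1.69 in KO, against 4.48 in WT replicate 2 and 5.40 in the table for WT replicate 1. Without WT replicate 1 its difference was -2.54 (limma adjusted p = 0.0836). Cebpe, a granulocyte factor, was at -3.08 and Flt3, a receptor of multipotent progenitors, at -1.86 without passing. With the block Cebpe, Flt3 and Cebpa passed as lower beside Csf1r, and Gp1ba, a platelet glycoprotein, as higher in KO. The list's median was 0.52, and the difference was positive for 10 of 18 genes, against 44.2% of all genes tested. In the scanner files 0 genes of these 4 lists passed.

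Between the tissues more genes of these lists passed than between genotypes, and so did more of all genes (22.9%, against 0.876%). In the value table, Hoxa10, Hoxb4 and Tcf4 (3 partners) were higher in bone marrow and Lyl1, Pbx2 and Men1 were among the lower ones, with Hoxb4 at 1.36 ± 0.20 and Pbx2 at -2.33 ± 0.23, the 2 that passed with the slide as a random block. Of 13 paralogs Gata3 was higher and Lmo4 was among the lower ones, neither with the block. Prdm15 passed as lower too, again not with the block, but was tested only through fetal liver WT, where it is high. It was above background on 2 of 4 bone marrow columns and 1 of 2 fetal liver arrays. Of the 24 other stem cell factors Nr4a1 (4.97 ± 0.42), an immediate early nuclear receptor, Nfix (2.81 ± 0.37), Myct1 (2.77 ± 0.29), Nfic, Nr4a2 and Mafk were higher. This was so for 8.92% of all genes. Hoxb5 and Rarb passed as higher too, but were tested only through bone marrow, where they are high. The lower ones were Hmga2 (-5.04 ± 0.25), a chromatin protein known from fetal stem cells, Gfi1, Ikzf1 and Foxo3. With the block Nr4a1, Nfix, Myct1 and Rarb passed as higher and Hmga2 and Ikzf1 as lower. Of 19 targets Pf4 (4.88 ± 0.59), Itga2b, Gp1ba, Angpt1 and Tek were higher and Cebpe, Mycl and Csf1r lower. With the block Pf4 and Itga2b passed. Mycl passed with and without the block, but was tested only through fetal liver, where it is high. Mycl was not well above background on any bone marrow array, and Hoxb5 and Rarb were not on either fetal liver array, which makes the folds at least 9.23-fold lower for Mycl and at least 3.08-fold and 2.60-fold higher for Hoxb5 and Rarb. Pf4, Itga2b and Gp1ba are also in the megakaryocyte list, whose sums were 112 to 260 on the table's bone marrow columns, against 33.2 and 35.3 in fetal liver KO and WT. Other lists went the other way. The 9 neutrophil genes summed to 31.1 to 1405 on the table's bone marrow columns, against 3057 and 3215 in fetal liver KO and WT. The 8 erythroid genes summed to 5.50 to 71.5, against 201 and 84.7. The part of these lists in the members' tissue differences was not tested. In the scanner files Nr4a1 (higher) and Cebpe (lower) passed.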

How the data were processed

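Amplification started from 10 ng of total RNA, and Cy3-labelled material was hybridised to 1-colour Agilent arrays, per the labels' protocols. The deposited scanner files hold spot intensity, and the submitters' processing notes name Feature Extraction 10.7.1.1. The authors' deposited table holds a linear ratio per probe, which on 5 arrays equalled the scanner signal over a fixed value near the 75th percentile, so its scale and direction are known. Column medians were 0.056 and 0.064 in bone marrow KO, 0.057 and 0.063 in bone marrow WT, 0.0709 in fetal liver KO and 0.0705 in fetal liver WT. For bone marrow WT replicate 1 its relation to the scanner file is unknown.

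From the deposited intensity and ratio values, log2 values minus each array's 75th percentile were computed, without control and outlier spots, and repeated spots were averaged. Through RefSeq accessions 26762 of 55681 probes were named. The brightest probe stands for a gene, and genes were tested where well above background on every array of 1 group or more. In the table column of bone marrow WT replicate 1 a level of -3.7 replaced the flag, and on bone marrow KO replicate 1 this level and the flags gave the same call for 99.1% of probes. Tests used limma 3.58.1 (lmFit, eBayes) in R 4.3.3 with Benjamini-Hochberg adjustment over all genes. The fits were tried on simulated data with the same spread for every gene. Unlike these arrays, the simulated ones had no slide effect and no array that stood apart. A dim group gives a bound, from the probe's signal or the dimmest signal that was well above background, whichever is higher. The number of arrays limits the precision.

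Per the file headers, each slide holds 1 KO and 1 WT array of 1 tissue, so the slide is also the replicate number and was fitted as a block. The table column of bone marrow WT replicate 1 was given the slide of its scanner file, although its relation to that file is unknown. Deviations of same-numbered bone marrow arrays correlated at r = 0.642 over 11983 genes in the table and at 0.0900 over 11765 in the scanner files. Alternatives were quantile normalization, other filters, the mean of probes, normexp with an offset of 50 (on the median signal, in place of the mean signal planned), the other source for bone marrow WT replicate 1, and leaving out each array. Members and lists were chosen with earlier results of these data known. Beside the members, the text names, apart from some not reported here, list genes that passed or had the 3 largest bone marrow differences, and the genes most alike in pattern. Cebpa, Gfi1 and Gp1ba in bone marrow are named because they passed with the block. Promoter windows and gene positions come from RefSeq (GRCm38.p6). No coordinates of the array's own build were used.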

Additional observations from a re-analysis of the deposited data

How the results depend on the processing

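Of the values for single members under the alternatives tried, 378 kept their direction and side of the threshold, 30 turned sign, 14 lost a call, 13 gained one and 2 without a test moved by more than the spread. Of the counts, 77 stayed within 1.5 times and 47 did not. With the slide as a replicate block the bone marrow count in the table was 981 genes and 2 members, against 112 and 0 without it, the genotype count over both tissues 0 against 23, and the interaction count 375 against 0. As a random block it gave 825 genes and 1 member, Mecom, for tissue, against 3089 and 3. No other call on a member changed with the block. Without the filter on dim probes the table counts were 11 genes for bone marrow KO minus WT, 11 for genotype, and 1791 genes and 1 member for tissue. The filter on all 4 arrays gave 27 genes in bone marrow. Quantile normalization gave 35 genes for genotype and 89 for the interaction in the table, and 2 for genotype in the scanner files. With bone marrow WT replicate 1 from the table the bone marrow scanner count was 118 genes, and with normexp 431 genes in fetal liver reached 2-fold, against 1238.

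Leaving out each array gave, in the scanner files, 0 to 2391 genes and 0 to 8 members for bone marrow, where 2391 genes and 8 members passed without WT replicate 2 and 159 genes and 0 members without WT replicate 1. For tissue it gave 0 to 1553 genes and 0 to 1 member, the highest counts coming without WT replicate 1. In the table it gave 88 to 656 genes and 0 to 1 member for bone marrow, 0 to 79 genes for genotype, and 814 to 1696 genes and 1 to 3 members for tissue, Mecom passing in each. Each fit that leaves 1 array in a group assumes that it varies like the others. In the bone marrow scanner fit without WT replicate 2, which tested 13408 genes, the only WT array left was the one that stood apart. Its scanner file had Kit at 1.30. The calls of that fit therefore compare KO with that array alone, and cannot tell a genotype difference from what sets that array apart. Members that turned sign on leaving out an array were, in bone marrow scanner values, Mecom (-0.16 to 3.72) and Runx1 (-0.81 to 0.11). In tissue scanner values they were Erg (-0.72 to 0.42), Gata2 (-2.72 to 0.91), Hlf (-3.01 to 0.46), Meis1 (-1.18 to 1.56), Prdm16 (-2.29 to 0.53), Runx1 (-0.00826 to 0.39) and Tal1 (-2.16 to 0.94). In the table they were Lmo2 (-0.27 to 0.24), Mecom (-0.17 to 0.34) and Runx1 (-0.38 to 0.19) in bone marrow, and Erg (-0.0261 to 0.42), Runx1 (-0.0765 to 0.19) and Tal1 (-0.13 to 0.94) between tissues. Lmo2 in bone marrow turned to -0.0155 in the scanner files with WT replicate 1 from the table and to 0.14 in the table with quantile normalization, and Runx1 to 0.0915 in the table with the mean of its probes. Over the alternatives the limma adjusted p in bone marrow ran between 0.0179 and 0.562 for Mllt3 and between 0.0344 and 1.00 for Gata2 in the table, and for tissue between 0.00233 and 0.0219 for Mecom. The cause of these changes was not tested.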
